A study of Mus musculus with 4 samples.

Results

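The MyoD family, Pax3, Pax7 and the Mef2 genes were followed in mesoangioblasts of the adult mouse (AdmMABs), progenitors from small vessels with the ability to make skeletal muscle. The 9 members were Myod1, Myf5, Myf6, Myog, Pax3, Pax7, Mef2a, Mef2c and Mef2d, chosen by name among the array's probe sets that carry exactly 1 gene symbol. They were measured by 10 probe sets, of 21789 tested for 19938 genes. Where a gene had several, the probe set with the highest mean over the 4 arrays stood for it, which concerned only Mef2d. Mef2b, the other Mef2 gene, was found only on a row that several genes share and was not measured by itself.

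Cells came from tibialis anterior muscle of adult male C57/BL6 mice and were kept growing in DMEM with 20% fetal bovine serum. In shPW1 AdmMABs a lentiviral short hairpin RNA targeted PW1, the zinc finger protein encoded by Peg3. Ctl AdmMABs received a lentiviral scrambled hairpin with no match in the mouse. Each group was 1 polyclonal transduced population from which 2 RNA extractions were hybridized to an Affymetrix Mouse Gene ST array each, so the p-values cover the spread between extractions only, which may be technical. The loss of PW1 rests on a single hairpin, and the methods do not tell which lentiviral backbone the Ctl cells of the arrays carried. All values are log2 expression after RMA by the authors, and a difference is shPW1 minus Ctl. A gene was called higher or lower at a Benjamini-Hochberg adjusted p under 0.05 from limma over all 21789 probe sets.

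Myod1, Myf5, Myog and Myf6 encode basic helix-loop-helix factors that bind the E-box, with the letters CANNTG, together with E proteins such as those of Tcf3, Tcf4 and Tcf12. Myf5 and Myod1 commit cells to the muscle lineage, Myog drives terminal differentiation, and Myf6 acts in late differentiation and in fibres. Pax3 and Pax7 are paired box factors that mark and maintain muscle progenitors and lie upstream of Myf5 and Myod1. Mef2 proteins are MADS box factors that bind AT-rich sites and act with the MyoD family on muscle promoters.

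Peg3 had log2 expression of 6.22 and 6.47 in the shPW1 arrays, against 8.67 and 8.70 in the Ctl arrays, a difference of -2.34 (standard error 0.10, adjusted p = 0.00428 from limma). The labels and the targeted transcript therefore went the same way. The median log2 value over all rows was 5.44 and 5.40 in the shPW1 arrays and 5.47 and 5.49 in the Ctl arrays. Cell type markers were set against 32 genes known from other tissues, by their means over the 4 arrays. Of 13 pericyte and smooth muscle markers 8 lay above all of them, and Rgs5, Kcnj8, Abcc9, Alpl and Myh11 did not. Pdgfrb, a pericyte receptor, lay at 10.36 and 10.33 in shPW1 and 10.81 and 10.78 in Ctl, and Acta2, smooth muscle actin, at 13.33 and 13.27 in shPW1 and 13.13 and 13.16 in Ctl. Alpl, the alkaline phosphatase used to mark mesoangioblasts in human muscle, read 5.79 and 5.73 in shPW1 and 5.75 and 5.95 in Ctl. Of 10 endothelial markers 1 lay above all of them, Flt1, at 7.15 and 7.22 in shPW1 and 7.15 and 7.23 in Ctl, and Pecam1 did not. Of 9 leukocyte markers 2 did, Cd68 and Cd14, and Ptprc did not. Above all 32 also lay 12 of 16 satellite cell and myoblast markers and 4 of 9 genes listed for fibro-adipogenic progenitors. So did 4 of 16 differentiated fibre markers and 2 of 5 Schwann and neural markers. The 4 genes listed for fibro-adipogenic progenitors include Tcf4, here the E protein gene and not Tcf7l2, for which the name is also used.

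The files hold no detection calls, so these 32 genes served as a gauge of the low end, with mean levels from 2.15 to 5.83 and a median of 4.87. Levels of different genes also depend on their probes and give no order of transcript amounts. Myod1, Myf5, Pax3, Mef2a and Mef2d lay above all 32 of these genes. Myog lay above 28 of them in the shPW1 arrays and above all 32 in the Ctl arrays. Pax7 lay above 29 by its mean over the arrays, Myf6 above 22 and Mef2c above 11, so these 3 genes were within the range of transcripts that the cells are not known to make. A difference in these 3 genes, and in Myog on the shPW1 side, is read from signal near the low end of the arrays. Among the 32 genes themselves 1 was called lower, Crygd, a lens crystallin, at a mean of 2.95 in shPW1 and 3.38 in Ctl (adjusted p = 0.0445 from limma), so a call can arise in this range.

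**Figure D1:**
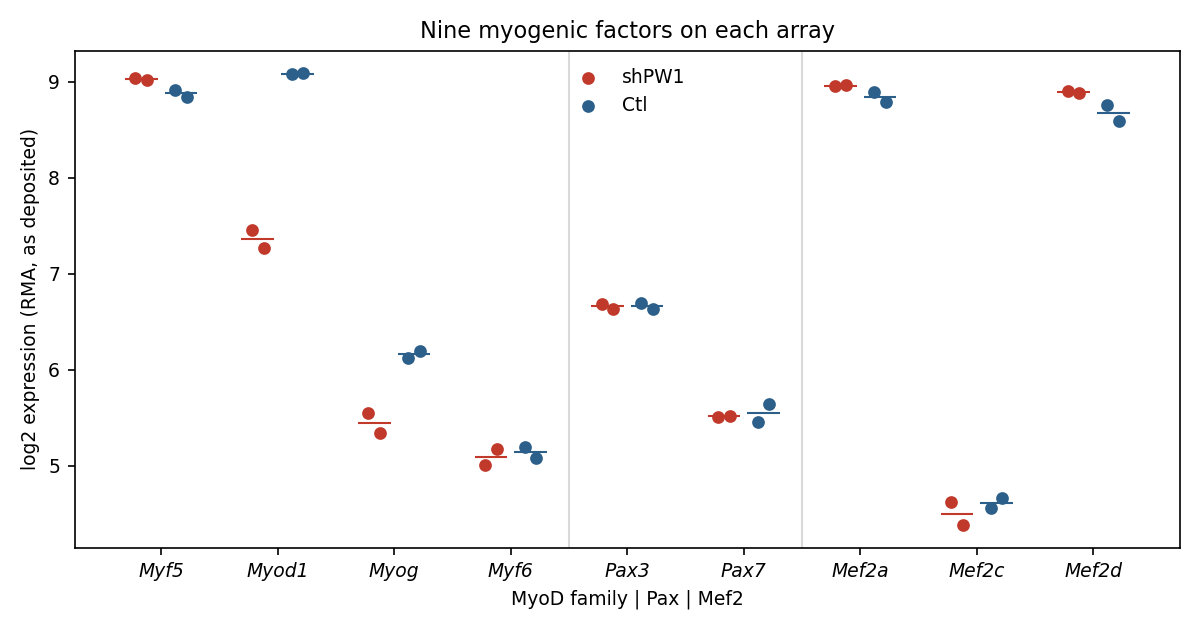
Log2 expression (vertical axis) of the 9 factors on each array, with shPW1 arrays in red to the left of Ctl arrays in blue. Each point is 1 array and each short line a group mean. Myod1 and Myog stand apart between groups, at 7.46 and 7.27 in shPW1 against 9.08 and 9.09 in Ctl for Myod1, while the points of Myf6, Pax3, Pax7 and Mef2c overlap.

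Myod1 fell in shPW1 AdmMABs and so did Myog, while Myf5, the other factor of commitment, did not pass the test, with a 95% interval from 0.014 log2 units below to 0.31 above its Ctl level. Of the 9 members, 2 were called lower and 0 higher, against 4.17% of all probe sets called lower, 4.93% called higher and 9.1% called in either direction. The groups of arrays did not overlap for 5 of the 9 members, and for 55.5% of all probe sets, so a lack of overlap by itself sets the members apart from nothing. The median difference was -0.034 over the members and -0.0095 over all probe sets. Among the members 3 had an unadjusted p under 0.05, namely Myod1, Myog and Mef2d.

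Myod1 read 7.46 and 7.27 in the shPW1 arrays, against 9.08 and 9.09 in the Ctl arrays. Both shPW1 arrays lay far below both Ctl arrays. The difference was -1.72 (standard error 0.08, 95% interval from -1.94 to -1.50, adjusted p = 0.00503 from limma), which is 3.30-fold on the linear scale. Only 16 of the 21789 probe sets fell further. By quantitative PCR, another assay, the paper reports MyoD transcripts with and without the hairpin, rising in differentiation in either case. The arrays cover growing cells only. In a bulk culture fewer cells that express Myod1 and less Myod1 RNA per cell cannot be told apart. With any single array left out, the difference stayed between -1.82 and -1.63, but the adjusted p lay between 0.0804 and 0.112, and these smaller limma fits called 0 probe sets in either direction, with 3790 to 5379 at an unadjusted p under 0.05. The unadjusted p of Myod1 from limma in them ran from 5.9e-05 to 0.000295.

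Myog read 5.55 and 5.35 in the shPW1 arrays, against 6.13 and 6.20 in the Ctl arrays, again with no overlap. The difference was -0.71 (standard error 0.09, 95% interval from -0.95 to -0.48, adjusted p = 0.0223 from limma). Its mean of 5.45 in shPW1 lay inside the range of the genes of other tissues, which reached 5.74 there, so no fold is given. When all rows of the table were tested the adjusted p from limma was 0.0916 for Myog and 0.0492 for Myod1, and with the replicate number as a block it was 0.0555 for Myog and 0.0162 for Myod1. In the fits without 1 array, which called 0 probe sets in all, the difference of Myog ran from -0.82 to -0.61 (unadjusted p from 0.00115 to 0.00794 from limma).

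Myf5 read 9.04 and 9.01 in the shPW1 arrays, against 8.92 and 8.84 in the Ctl arrays. The shPW1 arrays were slightly the higher and the groups did not overlap, but the difference of 0.15 (95% interval from -0.014 to 0.31) did not pass the test (adjusted p = 0.213 from limma). Myf6 read 5.01 and 5.17 in the shPW1 arrays and 5.20 and 5.08 in the Ctl arrays, which overlap. Its difference of -0.05 had an interval from -0.28 to 0.18.

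The difference between the changes of Myod1 and Myf5 was also taken array by array. Myod1 minus Myf5 was -1.58 and -1.75 in the shPW1 arrays, against 0.16 and 0.24 in the Ctl arrays, a change of -1.87. Myod1 minus Myog was 1.91 and 1.92 in the shPW1 arrays, against 2.96 and 2.89 in the Ctl arrays, a change of -1.01. The changes against the other 6 members, Myf6, Pax3, Pax7, Mef2a, Mef2c and Mef2d, lay between -1.94 and -1.61. All 8 comparisons separated the groups without overlap, but with 2 arrays against 2 the exact two-sided permutation p is 0.333 for each, the smallest this design allows, so none can pass a threshold.

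Pax3 read 6.68 and 6.63 in the shPW1 arrays and 6.69 and 6.64 in the Ctl arrays, with overlapping groups. The difference was -0.0063 with a 95% interval from -0.17 to 0.15 (adjusted p = 0.964 from limma). Pax7 read 5.51 and 5.52 in the shPW1 arrays and 5.45 and 5.64 in the Ctl arrays, so both shPW1 values lay between the Ctl values. Its interval ran from -0.25 to 0.18. The interval of Pax3 did not reach the size of the fall of Myod1. Nor did that of Pax7, but Pax7 lay within the range of the genes of other tissues, where a lack of change says little.

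Mef2a read 8.95 and 8.96 in the shPW1 arrays, against 8.89 and 8.79 in the Ctl arrays, a difference of 0.12 (95% interval from -0.05 to 0.29, adjusted p = 0.33 from limma). Mef2c read 4.62 and 4.38 in the shPW1 arrays and 4.56 and 4.67 in the Ctl arrays, which overlap. Its level lay inside the range of the genes of other tissues, where a lack of change says little. Mef2d had 2 probe sets, and both were higher in both shPW1 arrays without passing the test. The brighter read 8.91 and 8.88 in the shPW1 arrays, against 8.76 and 8.59 in the Ctl arrays, a difference of 0.22 (95% interval from 0.013 to 0.43, adjusted p = 0.164 from limma). The dimmer read 6.07 and 6.37 in the shPW1 arrays, against 5.71 and 5.67 in the Ctl arrays, a difference of 0.53 (95% interval from 0.24 to 0.83, adjusted p = 0.0579 from limma). The 2 probe sets therefore gave the same direction and different sizes, and the mean of both gave a difference of 0.38 (adjusted p = 0.0552 from limma). The brighter probe set was called higher where dim probe sets were left out (adjusted p = 0.0472 from limma) and under the trended robust prior (adjusted p = 0.0245 from limma).

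**Figure D2:**
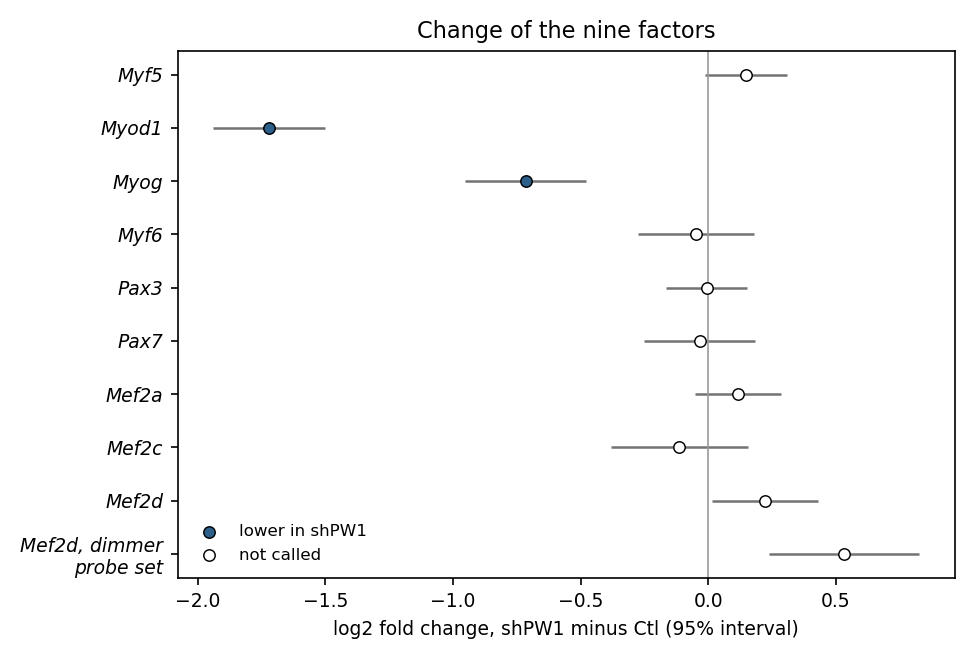
Log2 fold change, shPW1 minus Ctl (horizontal axis), of the 9 factors and of the dimmer Mef2d probe set, with 95% intervals from limma. Blue points were called lower and open points were not called. Myod1 lies at -1.72 and Myog at -0.71, and every other member lies between -0.11 and 0.22.

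By the thresholds of the methods, an unadjusted p under 0.05 in an analysis of variance and a fold change over 1.2, Myod1 and Myog passed and the other 7 members did not. These thresholds took in 11.7% of all probe sets.

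The named genes whose 4 log2 values, each taken minus the Ctl mean, lay nearest to those of Myod1 were Cthrc1, Prr9 and Dhrs3, at Euclidean distances of 0.11, 0.18 and 0.20 log2 units. Cthrc1, which encodes a secreted protein of collagen matrix, read 8.21 and 8.15 in the shPW1 arrays, against 9.84 and 9.90 in the Ctl arrays. Prr9 read 5.17 and 4.998 in shPW1, inside the range of the genes of other tissues, against 6.66 and 6.93 in Ctl. Dhrs3, a retinal reductase, read 7.36 and 7.38 in shPW1, against 9.06 and 8.97 in Ctl. With 4 arrays in 2 groups such a likeness says little more than that the falls were of like size.

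Sequences just upstream of 2 genes that fell, Myog and Chrna1, are shown because both are known to be bound by the MyoD family through E-boxes, which stand in capitals. Each run is the 250 bases before the start of the RefSeq transcript in GRCm38.p6, from 5′ to 3′ on the strand of the gene. The window of Myog is chr1:134289754-134290003 on the plus strand and that of Chrna1, the alpha subunit of the muscle acetylcholine receptor, is chr2:73580339-73580588 on the minus strand. In Myog the AT-rich run in capitals, CTATATTTAT, matches a form of the Mef2 site with C first and the last base free. That form was tried after the sequence had been seen.
Myog: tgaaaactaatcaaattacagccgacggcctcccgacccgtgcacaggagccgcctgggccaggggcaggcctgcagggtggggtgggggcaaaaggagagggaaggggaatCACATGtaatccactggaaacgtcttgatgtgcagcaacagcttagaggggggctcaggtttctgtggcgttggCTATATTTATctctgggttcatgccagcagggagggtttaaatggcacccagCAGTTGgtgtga
Chrna1: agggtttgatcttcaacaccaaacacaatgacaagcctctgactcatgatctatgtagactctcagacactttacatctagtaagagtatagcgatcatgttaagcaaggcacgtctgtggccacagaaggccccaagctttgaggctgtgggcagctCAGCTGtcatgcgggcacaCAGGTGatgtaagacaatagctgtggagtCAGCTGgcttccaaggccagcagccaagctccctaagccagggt

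The E-boxes of Myog were CACATG, beginning 138 bases before the start, and CAGTTG, 12 bases before it. Chrna1 held 3, of which 2 were CAGCTG, the form with a GC centre, at 92 and 44 bases before the start, and 1 was CAGGTG at 73 bases. Motifs were counted on both strands over the 300 bases from 250 before to 50 after each start, and CAGCTG is itself a CANNTG. The letters CANNTG stood in 72.3% of all 32851 windows of the RefSeq table, CAGCTG in 16.3% and the canonical Mef2 site in 3.19%. The Mef2 form with C first and the last base free stood in 3.59%. It leaves out canonical sites that begin with T and end with A, so all Mef2 sites with a free last base were not counted. Of the members, 6 had a window, 8 windows in all, and 3 windows held an E-box, 1 of Myog and 2 of Mef2c. Mef2a held a canonical Mef2 site. Myod1, Myf6 and Pax3 had no entry in the table. The binding motif known for PW1, AGTNNCNNNTGGCT, stood in 0 of the 8 member windows and in 0.484% of all windows. A match is a run of letters and not a bound site, and a window without one says nothing of binding elsewhere.

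Muscle genes known as targets of the MyoD family were lower in part. Of 33 measured, 8 were called lower and 0 higher, against 4.17% and 4.93% of all probe sets. A difference below 0 was seen in 29 (87.9%), against 52.4% of all probe sets. By their means over the arrays, 15 of the 33 lay within the range of the genes of other tissues. Of the 10 endothelial markers, 9 within that range and 0 called, 80% had a difference below 0. Of the genes of other tissues 56.25% did. A lean below 0 is therefore not particular to the muscle targets. At an unadjusted p under 0.05 from limma, 14 of the 33 were lower and 1 higher, and by the thresholds of the methods 9 and 0. The 8 calls were lost when all rows were tested, in the adjusted analysis of variance and in each fit without 1 array. The median difference of the list was -0.18, against -0.0095 over all probe sets. The 8 were Chrna1, Chrng and Musk of the neuromuscular junction, Mymk and Cdh15 of the myoblast surface, and Des, Actc1 and Myl4 of the cytoskeleton and sarcomere. Chrng, at a mean of 5.31 in shPW1 and 5.82 in Ctl, and Myl4, at 5.22 in shPW1 and 5.53 in Ctl, lay inside the range of the genes of other tissues in both groups.

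Mymk, which encodes the fusion protein myomaker, read 5.93 and 5.76 in the shPW1 arrays, against 6.43 and 6.58 in the Ctl arrays (difference -0.66, adjusted p = 0.0245 from limma). Chrna1 read 8.03 and 8.11 in shPW1, against 8.61 and 8.84 in Ctl (difference -0.66, adjusted p = 0.0285 from limma). Both lay lower in each shPW1 array than in either Ctl array. Cdh15, M-cadherin of satellite cells and myoblasts, read 7.95 and 8.01 in shPW1, against 8.64 and 8.60 in Ctl (difference -0.64, adjusted p = 0.0130 from limma). Des, the intermediate filament desmin, read 9.90 and 9.97 in shPW1, against 10.50 and 10.47 in Ctl (difference -0.55, adjusted p = 0.0174 from limma). Of the 8 called genes, 7 had a RefSeq window. An E-box stood in 6 of these windows and CAGCTG in 4, those of Chrna1, Chrng, Des and Musk, against 72.3% and 16.3% of all windows. The list holds known targets of factors that bind E-boxes, and windows of its uncalled genes were not searched.

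The other targets did not pass. Tnnt3 and Tnni1, troponins of fast and slow fibres, had differences of -0.52 and -0.49, and Chrnb1, the beta subunit of the same receptor, one of 0.25. Acta1, skeletal actin, read 8.06 and 8.03 in shPW1 and 8.02 and 8.12 in Ctl. Among 16 markers of differentiated fibres limma called 0, with 5 lower and 0 higher at an unadjusted p under 0.05, 0 by the thresholds of the methods and a median of -0.12. Their mean log2 level was 5.24 and 5.16 in the shPW1 arrays and 5.27 and 5.31 in the Ctl arrays. By their means over the arrays, 12 of these 16 lay within the range of the genes of other tissues, where a lack of calls says little.

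**Figure D3:**
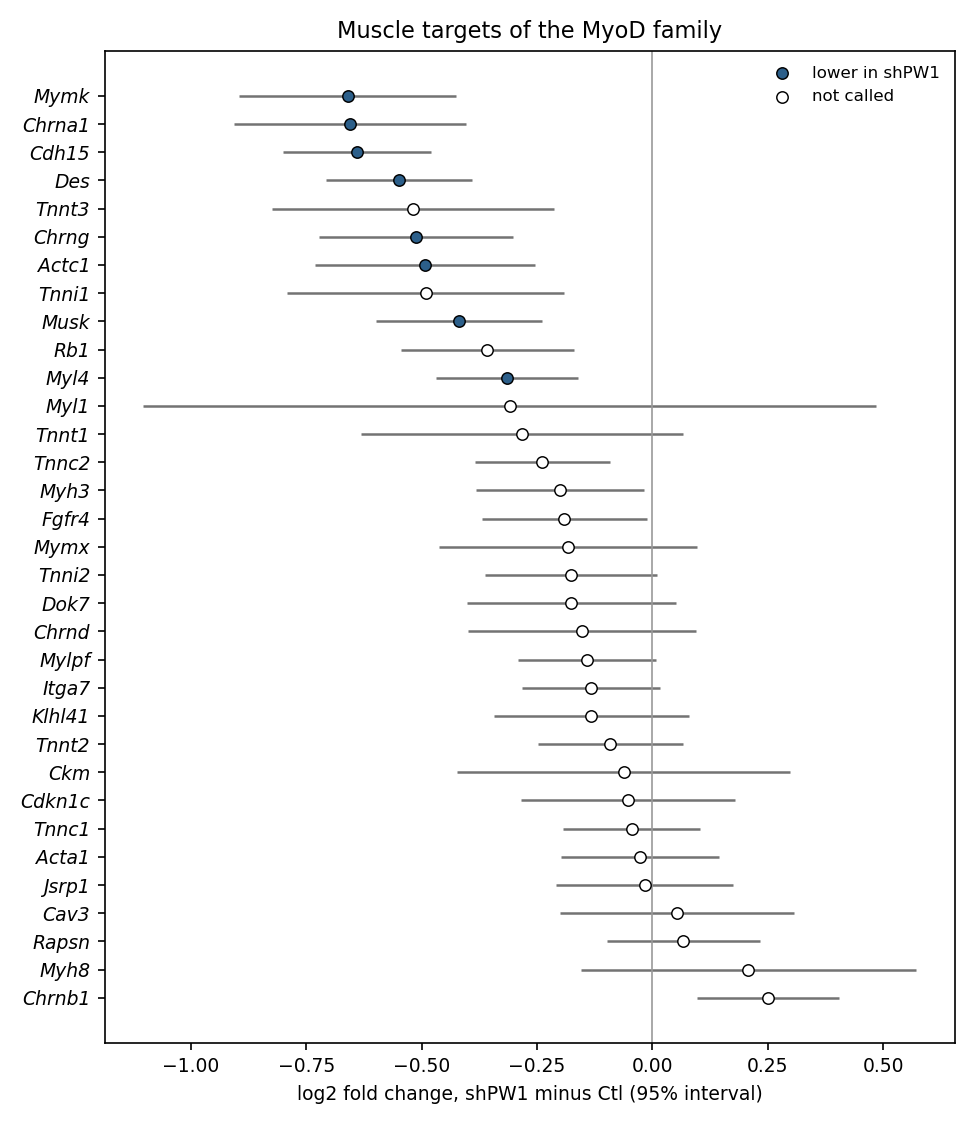
Log2 fold change, shPW1 minus Ctl (horizontal axis), of 33 muscle targets of the MyoD family, 1 gene per line, with 95% intervals from limma. The 8 blue points were called lower, from Mymk at -0.66 to Myl4 at -0.31, and open points were not called.

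Among 20 partners and inhibitors of the family, the median was -0.18. Of them 3 were called lower and 1 higher, against 4.17% and 4.93% of all probe sets. Tcf4, an E protein that pairs with MyoD family factors, read 8.26 and 8.30 in the shPW1 arrays, against 8.90 and 8.87 in the Ctl arrays (difference -0.61, adjusted p = 0.0134 from limma). Its relatives Tcf3 and Tcf12 differed by 0.11 and -0.19 and did not pass. Id2, an inhibitor that binds E proteins, had a difference of -0.49, while those of Id1 and Id3 were 0.12 and -0.0087 and did not pass. The Snail repressors, which bind E-boxes, went opposite ways, with Snai1 at 0.45 and Snai2 at -0.32, both called. An E protein and an inhibitor of E proteins were thus both among the genes that fell.

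Of 30 chromatin factors and Mef2 cofactors, 3 were called higher and 1 lower, against 4.93% and 4.17% of all probe sets. Vgll3, a cofactor of Tead factors, read 9.51 and 9.57 in the shPW1 arrays, against 8.40 and 8.28 in the Ctl arrays (difference 1.202, adjusted p = 0.00611 from limma). Tead1, its partner, had a difference of 0.50 and Srf, a MADS box factor that drives actin genes, one of 0.44. Hdac5, a class II deacetylase that represses Mef2, read 6.97 and 7.16 in shPW1, against 7.53 and 7.51 in Ctl, a difference of -0.45. Among 14 targets of Mef2, limma called 0 in either direction, with 2 lower and 1 higher at an unadjusted p under 0.05, 0 by the thresholds of the methods and a median of -0.05. By their means over the arrays, 11 of these 14 lay within the range of the genes of other tissues, where a lack of calls says little.

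Of 8 targets of Pax3 and Pax7, Met was called higher and Dmrt2 lower, against 4.93% and 4.17% of all probe sets. Met, the receptor of hepatocyte growth factor, read 10.33 and 10.41 in the shPW1 arrays, against 9.63 and 9.61 in the Ctl arrays (difference 0.75, adjusted p = 0.00999 from limma). Dmrt2, which acts between Pax3 and Myf5 in the mouse embryo, read 5.52 and 5.68 in shPW1, against 6.27 and 6.10 in Ctl, a difference of -0.59. Among 18 upstream factors Eya1 and Eya4, transcriptional coactivators, went opposite ways, at 0.51 and -0.48, and the other 16 did not pass. Calls in either direction took in 9.1% of all probe sets.

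Genes that act on the stability of MyoD protein were looked at because the study asks how PW1 bears on it. The list median was 0.15, and of the 9 measured 2 were called higher and 1 lower, against 4.93% and 4.17% of all probe sets. At an unadjusted p under 0.05 from limma 4 were higher and 1 lower. All 3 calls were lost with all rows tested, in the adjusted analysis of variance and with the replicate block, while the trended robust prior called 5 higher and 1 lower. Fbxo32, atrogin-1, which tags MyoD for the proteasome, read 8.46 and 8.63 in the shPW1 arrays, against 7.83 and 7.68 in the Ctl arrays (difference 0.79, adjusted p = 0.0192 from limma). Ccne1, cyclin E1, read 9.63 and 9.68 in shPW1, against 9.35 and 9.36 in Ctl (difference 0.30, adjusted p = 0.0484 from limma). Cdkn1b, the inhibitor p27 of its kinase, read 8.36 and 8.44 in shPW1, against 8.76 and 8.81 in Ctl (difference -0.39, adjusted p = 0.0345 from limma). The other 6 did not pass. Their differences were 0.28 for Ccne2, 0.25 for Cdk2, 0.15 for Cdk4, 0.03 for Cdk1, 0.01 for Huwe1 and -0.05 for Cdkn1c. All of these are RNA levels in growing cells, and no protein was measured on the arrays.

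Markers of muscle progenitors and of other cell types moved beside Myod1. Of all probe sets 4.17% were called lower and 4.93% higher. Of 16 satellite cell and myoblast markers, 4 were called lower, Notch3, Cxcr4, Cdh15 and Des, and 3 higher, Met, Vcam1 and Sdc4. Their mean log2 level was 7.995 and 7.96 in the shPW1 arrays, against 8.15 and 8.12 in the Ctl arrays. Cdh15 and Des also stand among the muscle targets, Met among the Pax targets and Notch3 among the pericyte and smooth muscle markers.

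Of 13 pericyte and smooth muscle markers, 5 were called lower and Tagln higher, against 4.17% and 4.93% of all probe sets. Notch3, a receptor of mural cells, read 6.73 and 6.65 in the shPW1 arrays, against 7.80 and 7.76 in the Ctl arrays (difference -1.10). Anpep, aminopeptidase N, had a difference of -1.06 and Cspg4, the proteoglycan NG2, one of -0.66, both called. The list's mean level was 7.43 and 7.39 in shPW1, against 7.62 and 7.65 in Ctl. Of 9 genes listed as markers of fibro-adipogenic progenitors 4 were called lower, Dcn, Tcf4, Osr1 and Pdgfra. The list's mean level, with Tcf4 included, was 5.79 and 5.82 in shPW1, against 6.10 and 6.12 in Ctl. Tcf4 of that list is the E protein gene and not Tcf7l2, for which the name is also used. Its fall is the one given among the partners of the MyoD family and does not speak for these progenitors. Dcn, at a mean of 5.10 in shPW1 and 5.81 in Ctl, lay inside the range of the genes of other tissues in both groups. Osr1, at a mean of 5.62 in shPW1, lay inside that range in shPW1. Of 10 endothelial and 9 leukocyte markers limma called 0, with 0 endothelial and 1 leukocyte marker at an unadjusted p under 0.05 and 0 by the thresholds of the methods. Of 5 Schwann and neural markers 1 was called lower, Tubb3, a neuronal tubulin, at 5.69 and 5.90 in shPW1, against 6.48 and 6.45 in Ctl (difference -0.67, adjusted p = 0.0245 from limma). The part of these marker shifts in the falls of Myod1, Myog and the muscle targets was not tested.

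**Figure D4:**
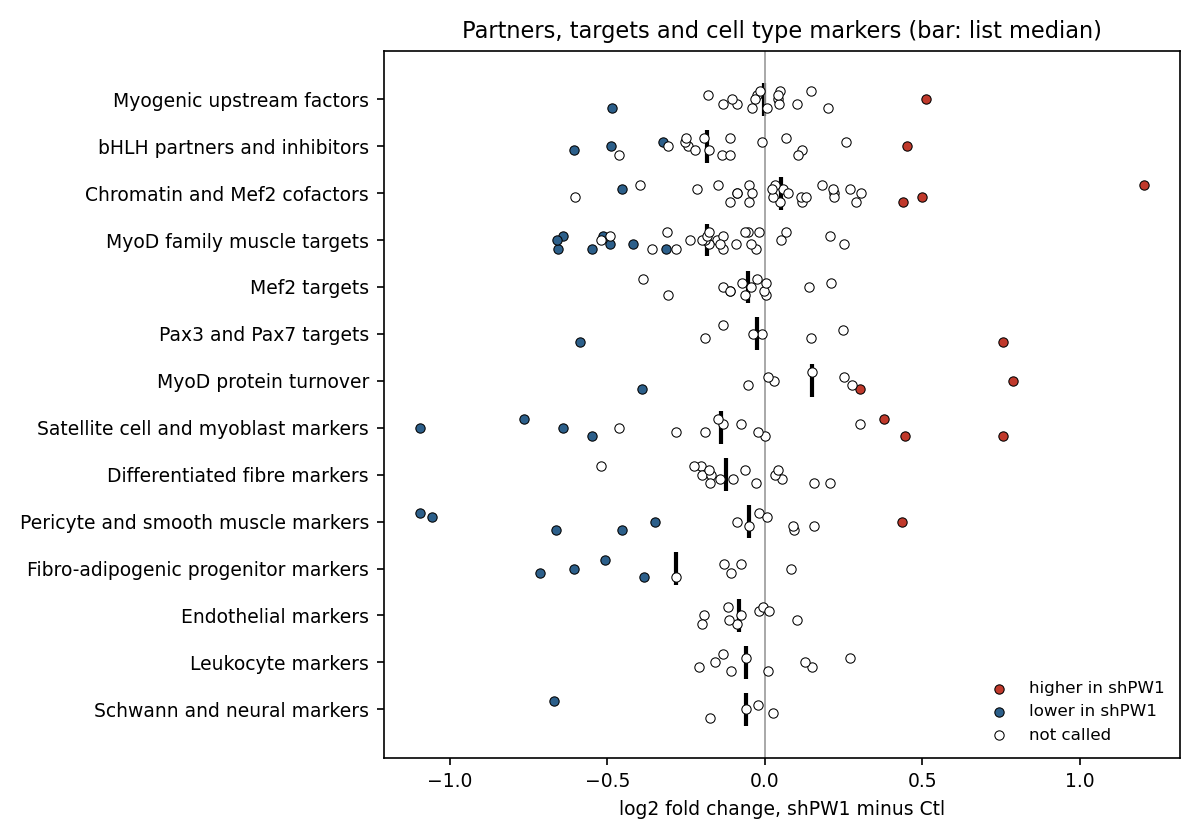
Log2 fold change, shPW1 minus Ctl (horizontal axis), of each measured gene in 14 lists of partners, targets and cell type markers. Red points were called higher, blue points lower and open points were not called, and black bars are list medians, which lie at -0.18 for the muscle targets and at -0.05 for the Mef2 targets.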

How the data were processed

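Total RNA of 2 shPW1 and 2 Ctl extractions was hybridized to Affymetrix Mouse Gene ST arrays. Log2 expression values were deposited after RMA by the authors in Partek, for which the submitters' notes give version 6.4, so the background correction and the summarization of probes are theirs. The table held 35556 rows. Tests used the 21789 rows with 1 gene symbol in the platform annotation, leaving aside 1621 rows with several symbols and 12146 without one.

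The linear model of limma 3.58.1 (R 4.3.3) was fitted with moderated variances, with 2 residual and 2.72 prior degrees of freedom per probe set. Its two-sided p-values were adjusted by Benjamini-Hochberg over all probe sets tested. Depth and detection calls were not available to the tests, and the number of arrays limits the precision. The test was checked on simulated data with 200 of 21789 probe sets changed. Of changes of 0.5 on the log2 scale it recovered 10%, with 78% at 1, 98% at 1.5 and 94% at 2. Of its 152 calls 12 were false. In the real arrays 1983 probe sets were called, and the adjusted p depends on how many change. The recovered shares therefore need not hold for the real arrays.

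The members, gene lists and naming rule were chosen with earlier results of these data known. The rule names the members, Peg3 and Mef2b, up to 4 called genes per list with the largest change, and the 3 named genes nearest to Myod1. Other genes were named after their values were seen. Promoter windows came from RefSeq (GRCm38.p6). The alternatives left out dim probe sets, tested all rows, repeated quantile normalization, subtracted array medians, used a trended robust prior, averaged a gene's probe sets, ran the analysis of variance of the methods, blocked on the replicate number, or dropped each array in turn.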

Additional observations from a re-analysis of the deposited data

How the results depend on the processing

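Myod1 kept its direction under each alternative run. In the analysis of variance after adjustment it stood at -1.72 with an adjusted p of 0.106, and its adjusted p from limma was 0.0804 to 0.112 with an array left out (log2 fold change from -1.82 to -1.63). Of the members, 1 was called higher with dim probe sets left out and 1 with the trended robust prior. The number called lower was 1 with dim probe sets left out, 1 with all rows, 1 with the replicate block, 0 in the adjusted analysis of variance and 0 to 0 with an array left out. Myog, whose probe set the filter on dim probe sets removed, was the member lost with all rows and with the block (adjusted p = 0.0555 from limma).

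Over all probe sets, 2505 were higher and 1799 lower with dim probe sets left out, 36 and 50 with all rows, 2735 and 1978 with the trended robust prior, 1 and 1 in the adjusted analysis of variance, and 0 to 0 with an array left out. Subtracting array medians moved the median difference of all probe sets to 0.05, gave 1637 higher and raised the share of calls that were higher to 70.1%, against 54.2% before. With the replicate number as a block, 256 were higher and 258 lower. Same-numbered arrays deviated in opposite directions (r = -0.11, across probe sets), so a crossed block was added after seeing the data, and it called 213 higher and 224 lower.

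Differences near 0 changed sign without being called. Myf6 was 0.0080 after repeated quantile normalization and 0.017 with medians subtracted, Pax3 0.027 and 0.058, and Pax7 0.034 and 0.030. With an array left out Myf6 ran from -0.13 to 0.036, Pax3 from -0.035 to 0.022, Pax7 from -0.13 to 0.061 and Mef2c from -0.23 to 0.0077. The dimmer Mef2d probe set was called higher after repeated quantile normalization (adjusted p = 0.0487 from limma), with medians subtracted (0.0364) and with the trended robust prior (0.00608). The muscle targets called lower numbered 2 with the replicate block, 0 to 10 over the 8 alternatives that kept all arrays, and 0 in each fit without an array. With all rows tested the other lists had 0 calls, except 1 satellite cell marker and 2 pericyte markers called lower, and in the adjusted analysis of variance 0 calls. The cause of each change was not tested.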
